A study of Homo sapiens with 35 samples.

Results

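Imprinted genes are genes of which the copy from either the mother or the father is silenced. The 35 genes described here were taken from a list of imprinted genes named by symbol and grouped into 17 clusters, among 59098 annotated genes on chromosomes 1 to 22 and X. Of these 35, 30 encode proteins and 5 give non-coding RNAs. SLC22A18 was matched through a synonym, since the annotation calls it SLC67A1. The data are ATAC-seq, in which a transposase cuts accessible DNA, from cells on the way to blood progenitors, grown from H1, a widely used line of human embryonic stem cells. The labels give 12 libraries of a line called doxee17 with doxycycline, which switches on ectopic MYC, 11 untreated libraries of doxee17 and 12 untreated libraries of H1, each over 6 days from day 10 to day 20. That makes 35 libraries, against 44 in the series' design text, and which of them entered the peak list is not given in the sources used here. Both doxee17 groups are batch 1 and the H1 group is batch 2, and all 3 groups share the H1 origin. The promoter that drives MYC and the number of clones are not given in the sources used here. The values are a single list of 308732 peaks for the whole series with no value for any library, so treatment, day, line and batch cannot be compared, there are no replicates, and no difference below was tested.

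Each peak has the authors' fold enrichment, the signal at its summit over a background that is the same for the whole genome. Counting error is given as an exact Poisson 95% interval from the pileup that this fold implies, and it does not cover differences between cultures. All lengths and positions are on GRCh38. As a check of the labelled cell type, 10 of 12 blood progenitor markers had a summit within 1 kb of a gene end, with a median of 34.8-fold, against 9 of 14 markers of other cell types, with a median of 2.25-fold. Over all coding genes the share was 83.0% and the median 43.5-fold, so the blood markers do not stand above coding genes in general by this measure. GATA2 and TAL1, the 2 blood markers without such a summit, each had an end within 1 kb of a peak whose summit lay farther off, of 54.9-fold and 105-fold. ITGA2B (113-fold), SPI1 (109) and RUNX1 (80.9) led the blood markers. Among the markers of other cells, PECAM1 of endothelium (82.9-fold), COL1A1 of fibroblasts (60.6) and SOX2 of stem cells (17.6) led. ALB, AFP, COL3A1, DCN and CDH5 had none. CDH5, like GATA2 and TAL1, had an end within 1 kb of a peak whose summit lay farther off, of 33.4-fold. The part of such other cells in the peaks below was not tested.

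Imprinting is set in the germ line by DNA methylation of control regions, and these marks are kept in the embryo on the copy of 1 parent. At most imprinted clusters the unmethylated copy is open and serves as a promoter, often of a long non-coding RNA, or as a site for the insulator protein CTCF. ZFP57, a zinc finger protein, keeps methylation at many control regions by binding methylated TGCCGC. In blood, several imprinted genes, among them H19, IGF2, DLK1 and MEG3, are studied in stem cell growth and in leukaemia. The peak list does not tell the 2 parental copies apart, so a peak can stem from either copy or both.

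The sequences below are RefSeq promoter windows on GRCh38.p14, from 250 bases before to 50 bases after an annotated start, written along the gene. They contrast starts without a peak (H19 and MEG3) with starts that had one, including the pair of PLAGL1 starts of which only the inner one lies in an imprinted control region. Capitals mark TGCCGC or its reverse complement GCGGCA. Where both overlap, as in MEST, the run TGCCGCGGCA holds both.
H19 start, chr11:2001217-2001516, strand -: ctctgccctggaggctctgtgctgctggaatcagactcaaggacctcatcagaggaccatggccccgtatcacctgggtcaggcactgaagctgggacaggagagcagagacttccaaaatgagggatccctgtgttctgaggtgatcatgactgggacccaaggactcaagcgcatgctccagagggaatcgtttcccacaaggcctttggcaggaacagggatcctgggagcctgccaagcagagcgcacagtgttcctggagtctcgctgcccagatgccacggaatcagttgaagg
MEG3 first start, chr14:100825858-100826157, strand +: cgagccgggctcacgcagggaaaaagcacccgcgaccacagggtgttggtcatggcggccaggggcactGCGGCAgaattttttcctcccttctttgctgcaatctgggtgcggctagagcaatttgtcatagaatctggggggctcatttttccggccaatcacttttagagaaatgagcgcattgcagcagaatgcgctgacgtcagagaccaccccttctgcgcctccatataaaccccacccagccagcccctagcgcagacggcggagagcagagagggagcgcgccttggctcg
PLAGL1 first start, chr6:144064550-144064849, strand -: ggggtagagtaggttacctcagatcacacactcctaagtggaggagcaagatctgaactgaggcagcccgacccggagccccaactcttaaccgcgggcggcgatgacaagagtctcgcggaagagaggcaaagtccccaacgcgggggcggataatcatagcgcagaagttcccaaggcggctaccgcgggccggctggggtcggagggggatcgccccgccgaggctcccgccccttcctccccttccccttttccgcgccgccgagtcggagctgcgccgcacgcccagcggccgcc
PLAGL1 start 3, chr6:144008210-144008509, strand -: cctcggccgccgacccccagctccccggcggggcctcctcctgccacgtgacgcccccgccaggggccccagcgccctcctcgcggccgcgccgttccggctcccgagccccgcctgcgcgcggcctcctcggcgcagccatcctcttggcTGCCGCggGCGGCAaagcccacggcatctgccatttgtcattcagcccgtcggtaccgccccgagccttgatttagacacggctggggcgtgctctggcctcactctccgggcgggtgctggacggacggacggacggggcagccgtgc
MEST start 5, chr7:130491835-130492134, strand +: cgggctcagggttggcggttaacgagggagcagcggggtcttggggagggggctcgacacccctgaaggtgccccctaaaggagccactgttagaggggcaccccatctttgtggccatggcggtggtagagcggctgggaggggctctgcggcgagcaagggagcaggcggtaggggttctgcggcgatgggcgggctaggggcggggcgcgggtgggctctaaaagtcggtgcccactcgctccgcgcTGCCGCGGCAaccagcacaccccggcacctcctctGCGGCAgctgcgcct
SNURF start, chr15:24954737-24955036, strand +: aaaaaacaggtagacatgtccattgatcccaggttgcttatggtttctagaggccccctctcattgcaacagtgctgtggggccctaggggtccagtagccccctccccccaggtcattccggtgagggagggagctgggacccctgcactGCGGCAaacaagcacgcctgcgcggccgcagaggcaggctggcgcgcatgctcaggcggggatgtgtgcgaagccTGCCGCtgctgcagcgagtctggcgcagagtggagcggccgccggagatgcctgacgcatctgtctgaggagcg
NAP1L5 start, chr4:88697780-88698079, strand -: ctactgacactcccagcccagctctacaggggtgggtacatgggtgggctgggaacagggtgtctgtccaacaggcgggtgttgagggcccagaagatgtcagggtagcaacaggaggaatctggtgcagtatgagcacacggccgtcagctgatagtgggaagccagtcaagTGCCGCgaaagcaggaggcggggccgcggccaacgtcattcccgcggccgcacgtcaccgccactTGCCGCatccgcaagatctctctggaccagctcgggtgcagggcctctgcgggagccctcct
The annotation gave 56 starts for 24 of the 35 genes, and starts of the same gene can share bases. SNRPN and SNURF share a start, and its window counts for both. TGCCGC on either strand was present in 23 of these 56 windows (41.1%), against 16.8% of 34961 windows over all genes and 20.6% of the windows of coding genes. By gene, 15 of 24 held it in any window, against 19.5% of 27195 genes, with no allowance for the number of starts. The median was 18.5 CpG in the windows of imprinted genes, against 14 in all windows and 21 in those of coding genes. Among windows with 20 or more CpG, 13 of 27 windows of imprinted genes held the letters (48.1%), against 30.5% of all such windows. The letters stood in windows with a peak (PLAGL1 start 3, MEST start 5, SNURF, NAP1L5) and in windows without (MEG3). H19 and the first PLAGL1 start had none.

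Peaks at the ends of the coding imprinted genes were lower in the median than at coding genes in general. The share of genes with a summit within 1 kb of an end was somewhat lower. Where any peak reaching within 1 kb counted, 26 of 30 had one, close to the 87.6% of all coding genes. A summit lay within 1 kb of an end in 25 of 35 imprinted genes, against 55.5% of all annotated genes, whose median was 2.29-fold and of which many are non-coding. By type, this was 23 of 30 coding genes, against 83.0% of all 19974 coding genes, and 2 of 5 non-coding genes, against 54.9% of all lncRNA and antisense genes. The median of the highest fold at an end, taking 0 where there was none, was 17.6 over the 35 genes (18.5 over the 30 coding ones), against 43.5 over all coding genes, and 7 of 35 exceeded that value. With windows of 0.5 kb these medians were 5.11 over the 35 genes and 27.9 over all coding genes. Where only summits nearest to the gene itself counted, they were closer, 17.2 and 24.8. Only 4, all coding, passed 100-fold (13.3% of the 30), against 29.2% of all coding genes. The start of the gene held the higher peak in 21 genes and the far end in 4 (MAGEL2, GNAS, NNAT and DIRAS3). In GNAS and DIRAS3 the counting intervals of both ends overlapped. Where any peak reaching within 1 kb counted, NNAT (10.5-fold) and DIRAS3 (9.62) had the higher peak at the start. The share of all coding genes with the higher peak at the start was not computed.

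**Figure D1:**
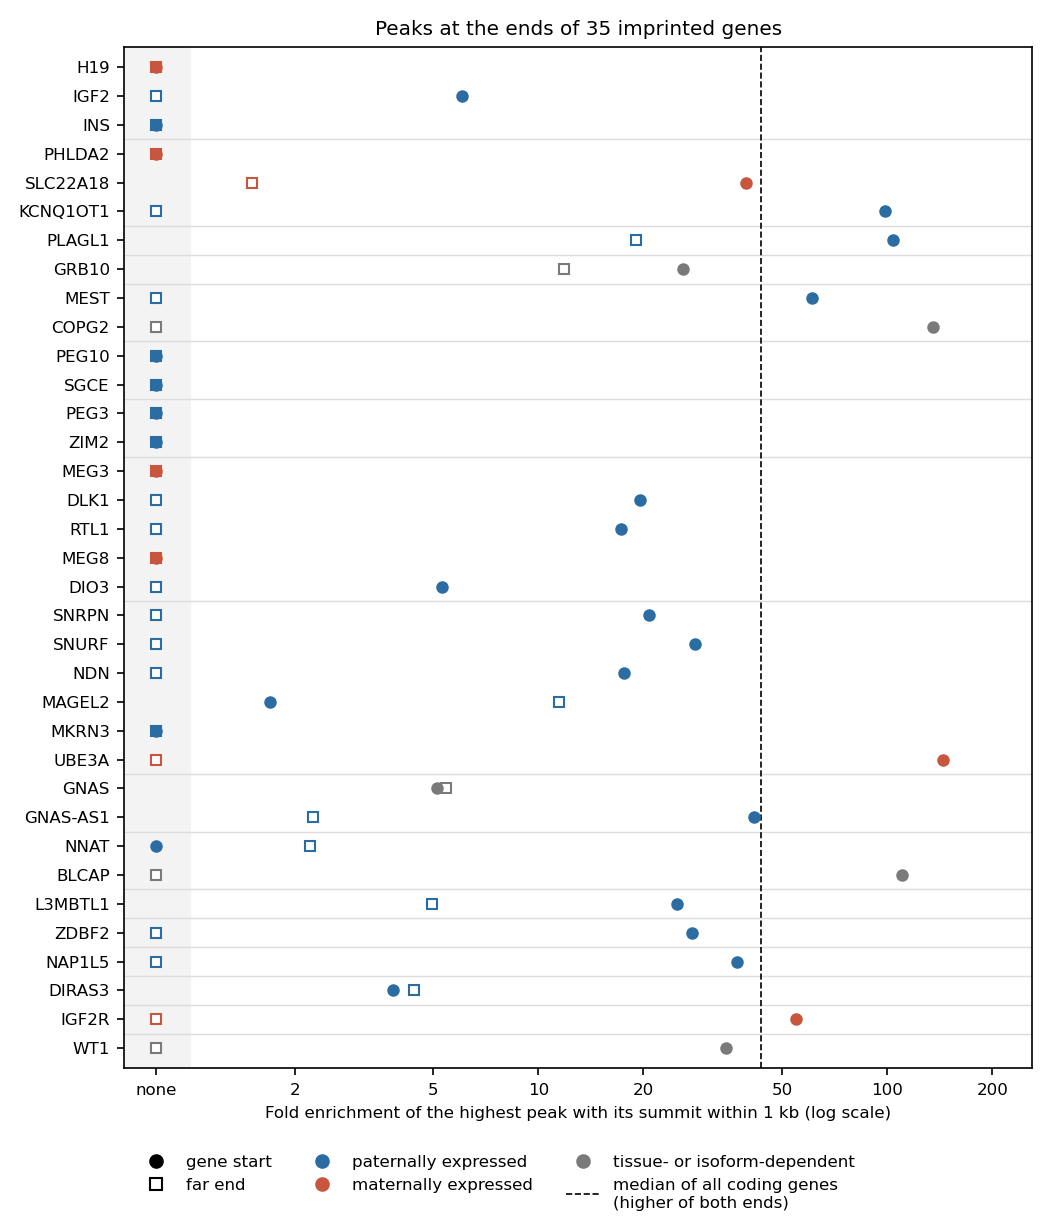
Highest fold of a peak with its summit within 1 kb of the gene start (filled circles) and the far end (open squares) for the 35 imprinted genes, on a log axis, with genes of a cluster between grey lines and genes without a summit in the shaded strip. The starts of UBE3A, COPG2, BLCAP and PLAGL1 lie above 100-fold, while 10 genes have no summit at either end.

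UBE3A led with 144-fold (142 to 147), followed by COPG2 with 135-fold (133 to 138), BLCAP with 110.4-fold, PLAGL1 with 104-fold (102 to 106), KCNQ1OT1 with 98.5-fold (96.5 to 101), MEST with 60.7-fold and IGF2R with 54.7-fold. The intervals of these 7 did not overlap between neighbours in the order. Farther down, some neighbours could not be ordered by counting error. GNAS-AS1 (41.5-fold), SLC22A18 (39.4) and NAP1L5 (37.1) overlapped from neighbour to neighbour, as did SNURF (28.1), ZDBF2 (27.5), GRB10 (26.0) and L3MBTL1 (24.9), SNRPN (20.7) and DLK1 (19.5), and NDN (17.6) and RTL1 (17.2). WT1 had 34.4-fold and MAGEL2 11.5-fold. The lowest genes with a summit were IGF2 (6.02), GNAS (5.42), DIO3 (5.28), DIRAS3 (4.39) and NNAT (2.21). Of these, all but NNAT overlapped from neighbour to neighbour. H19, INS, PHLDA2, PEG10, SGCE, PEG3, ZIM2, MEG3, MEG8 and MKRN3 had no summit at an end. In 3 of these 10, PHLDA2, PEG10 and SGCE, a peak with a summit farther away reached an end, so 26 of 30 coding genes had an end within 1 kb of a peak, against 87.6% of all coding genes.

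In the domain of H19 and IGF2 on chromosome 11, neither the H19 gene nor the sequence before its start lay under a peak. H19 (1995176 to 2001266) gives a non-coding RNA from the maternal copy. The stretch without a peak ran from 1991606 to 2015079, 23.5 kb, whereas the median distance between neighbouring peaks was 2778 bp. Such lengths are not rare, since 1078 of 14787 distances between neighbouring peaks on chromosome 11 were longer. The stretch around H19 also holds MIR675, a microRNA made from H19, and the sequence directly before the annotated outer start of H19. IGF2 (2129117 to 2149566), the paternally expressed growth factor, had 6.02-fold (5.54 to 6.54) 881 bp before its annotated start. Inside the gene its highest peaks had 10.4-fold (2136389 to 2138331) and 9.52-fold (2138596 to 2140188), at 12.1 and 10.2 kb past the start. INS, the insulin gene (2159779 to 2161209), lay in a 5.82-kb stretch without a peak, between a 21.5-fold peak on its IGF2 side and a 1.69-fold peak. Between H19 and IGF2 stood 16 peaks in 128 kb, a density of 12.5 per 100 kb, against 10.2 per 100 kb over the genome. The highest of them, 36.2-fold (2088912 to 2089978), lay 39.4 kb past the far end of IGF2.

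Around KCNQ1OT1, peaks were dense and several were strong. KCNQ1OT1 (chromosome 11, 2608328 to 2699994) is a long antisense RNA inside the potassium channel gene KCNQ1, made from the paternal copy, and its promoter is the control region of the domain. A 98.5-fold peak of 3224 bp (2699001 to 2702224) covered its start, with the summit 145 bp before it. Inside the RNA gene the highest of 16 peaks had 22.1-fold. SLC22A18 (2899691 to 2925246), a transporter gene expressed from the maternal copy, had 39.4-fold (38.1 to 40.7) at its outermost start. At the 2 starts of the RefSeq promoter table farther inside, it had 114-fold (112 to 116), in a peak from 2901331 to 2903850. PHLDA2 (2928273 to 2929420), a maternally expressed regulator of placental growth, lay wholly under a 16.99-fold peak of 4771 bp (2927575 to 2932345), whose summit lay 1.44 kb before its start. Another peak, of 59.3-fold (2932697 to 2934172), stood 4.14 kb from PHLDA2. Between KCNQ1OT1 and SLC22A18, 62 peaks covered 32.3% of 199.7 kb, with the highest, 139.8-fold (2836186 to 2839981), inside KCNQ1. CDKN1C, a cell cycle inhibitor of this domain expressed from the maternal copy, had 83.6-fold at an end.

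In the DLK1 to DIO3 domain on chromosome 14, the paternally expressed coding genes had peaks at their starts. The maternally expressed RNAs MEG3 and MEG8 had none within that distance. DLK1 (100726892 to 100738224), a membrane protein related to Notch ligands, had 19.5-fold (18.6 to 20.4) at its start. Peaks covered 91.4% of its length. RTL1, derived from a retrotransposon, had 17.2-fold, with the summit 789 bp before its start, so it had none with windows of 0.5 kb. DIO3, an enzyme that inactivates thyroid hormone, had 5.28-fold. DIO3 also lay near a 12.2-fold peak with its summit 1.14 kb before its start. MEG3 (100826108 to 100861026) and MEG8 (100889649 to 100999113), non-coding RNAs of the maternal copy, had no summit at either end. The MEG3 start lay in a 6.21-kb stretch without a peak (100824605 to 100830809), and the MEG8 start in one of 22.8 kb. Within MEG3, 9 peaks were called, the highest of 41.2-fold (100850872 to 100851813), 25.2 kb past the start. Of the 5 peaks inside MEG8, 3, up to 23.8-fold, also lay inside RTL1, which MEG8 overlaps. The other two were the 17.2-fold peak at the RTL1 start and one of 4.86-fold.

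Wide peaks stood before DLK1. The strongest, 198-fold (196 to 201) and 11155 bp wide (100674400 to 100685554), lay 46.0 kb before its start. Next came a 121-fold peak of 8176 bp (100708258 to 100716433) at 15.1 kb and a 25.5-fold peak of 7675 bp at 27.6 kb. Together with weaker ones, 33 distal peaks lay within 50 kb of DLK1, the most of the 35 genes. Distal peaks are those outside the gene whose summit is not within 1 kb of an end of any coding gene or any of the 35 genes. The interval from DLK1 to MEG3, which holds the control region of the domain, had 28 peaks in 87.9 kb, the highest of 50.8-fold (100770366 to 100773755). From MEG8 to DIO3, 62 peaks stood in 562 kb, or 11.0 per 100 kb. That interval holds 43 microRNA genes, and 1 of them had a summit within 1 kb. The share over all microRNA genes was not computed, so this count has nothing to be set against.

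**Figure D2:**
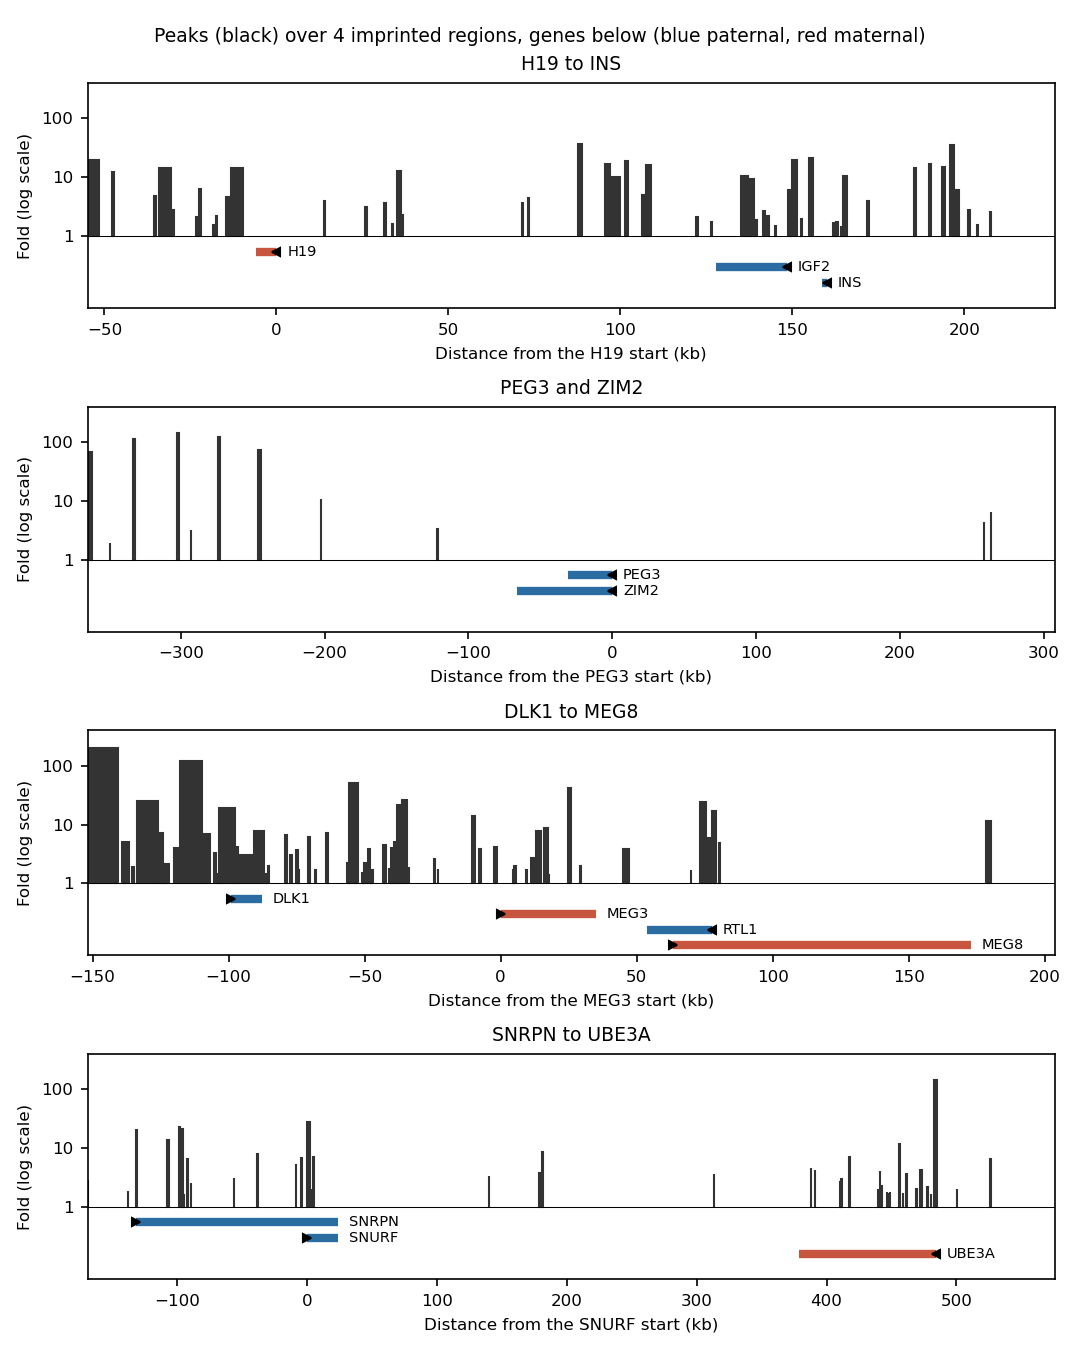
Peaks as black bars (position against distance in kb from a gene start, height in fold on a log axis) over 4 imprinted regions, with genes below as blue (paternally expressed) or red (maternally expressed) bars and arrowheads at their starts; the narrowest peaks are drawn at a fixed line width. PEG3 and ZIM2 lie in a stretch of 380 kb without a peak, and the starts of H19 and MEG3 lie between peaks.

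Peaks were sparse across the Prader-Willi and Angelman region on chromosome 15, apart from the UBE3A start. Loss of its paternally expressed genes causes Prader-Willi syndrome, and loss of maternal UBE3A causes Angelman syndrome. The 1973-kb window held 69 peaks, 3.50 per 100 kb, against 10.03 over the chromosome, and peaks covered 2.01% of it. UBE3A (25333728 to 25439056), a ubiquitin ligase imprinted in neurons, had 144-fold in a 2083 bp peak (25437786 to 25439868), 30 bp before its start. SNURF (24954987 to 24978723), whose start is a paternally active promoter in the control region, had 28.1-fold (27.0 to 29.2) in a 2417 bp peak (24954632 to 24957048). SNRPN, a splicing factor gene that ends with SNURF but reaches farther out, had 20.7-fold at its outermost start. At starts farther inside, SNRPN had 22.9-fold, 6.59-fold and, at the one shared with SNURF, 28.1-fold. The innermost of them had no summit within 1 kb but lay under that same peak. NDN, an intronless growth suppressor gene (23685400 to 23687305), had 17.6-fold at its start. MAGEL2 (23643549 to 23647867), a regulator of protein sorting, had 1.70-fold (1.45 to 1.99) at its start and 11.5-fold (10.8 to 12.2) at its far end. MKRN3 (23565674 to 23568044), which restrains the onset of puberty, lay in a stretch of 85.2 kb without a peak. Between SNURF and UBE3A, 4 peaks stood in 355 kb, up to 8.76-fold. Of 83 small nucleolar RNA genes there, 1 had a summit within 1 kb, and the share over all such genes was not computed.

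PEG3 and ZIM2, paternally expressed zinc finger genes on chromosome 19 that share a start, had no peak at all. PEG3 spans 56810082 to 56840726 and ZIM2 56774547 to 56840726. The nearest peaks were one of 3.33-fold, 121 kb from the shared start past the far ends of both genes, and one of 4.37-fold on the other side. The stretch between them, 56719343 to 57099173, measured 380 kb. Only 6 of 9033 distances between neighbouring peaks on chromosome 19 were longer. It holds 9 annotated genes whole, among them PEG3-AS1 and MIMT1, which are also imprinted. In all, 5 of the 35 genes (H19, INS, PEG3, ZIM2 and MKRN3) had no peak over any base. The 4 coding ones among the 30 compare with 8.46% of all coding genes.

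PEG10 and SGCE on chromosome 7, both paternally expressed, start 0.191 kb apart in opposite directions, and a single 168-fold peak (164.9 to 170.1) of 3889 bp (94655089 to 94658977) covered both starts. PEG10, derived from a retrotransposon, spans 94656325 to 94669695, and SGCE, a sarcoglycan gene, 94584980 to 94656133. The summit lay 1995 bp past the PEG10 start, which is why neither gene had a summit at an end by the 1-kb rule. This was the strongest peak over any of the 35 genes. SGCE otherwise held 3 peaks inside it, up to 27.0-fold.

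Several genes have both an imprinted and a non-imprinted start, and the peaks at these were of unequal height. PLAGL1 (chromosome 6, 143940300 to 144064599) encodes a zinc finger growth suppressor. Its outermost start, which is used from both copies, had 104-fold (102 to 106). The start 56.3 kb inside, in the imprinted control region, had 38.2-fold (36.9 to 39.4) in a peak from 144006255 to 144008951, at the end of HYMAI, a paternally expressed RNA. MEST (chromosome 7, 130486175 to 130506465), a hydrolase gene, likewise had 60.7-fold (59.2 to 62.3) at its outer starts and 26.9-fold (25.9 to 28.0) at the starts 5.15 to 5.91 kb inside, the imprinted ones. COPG2, a vesicle coat gene whose imprinting is disputed and whose far end meets that of MEST, had 135-fold at its start, with the summit 1 bp from an end of its neighbour TSGA13. GRB10 (chromosome 7, 50590068 to 50793453), an adaptor that restrains insulin signalling, had 26.0-fold at its outermost start and 12.5-fold at the start 10.6 kb inside. GRB10 held 65 peaks more than 1 kb from its ends, the most of the 35 genes, with the highest of 44.5-fold (50720824 to 50726283) at 68.7 kb past its start.

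L3MBTL1, a chromatin reader gene on chromosome 20 in a region often deleted in myeloid disease, showed the opposite order. Its outer start had 24.9-fold (23.9 to 25.9) and the start 6.74 kb inside 162-fold (159.7 to 164.8), in a peak of 1944 bp (43513645 to 43515588). The window of this inner start is shown because it is a tandem repeat in which the letters GGGGCGTGGC, in capitals, recur. They are the most repeated run of 10 letters in it.
L3MBTL1 start 2, chr20:43514191-43514490, strand +: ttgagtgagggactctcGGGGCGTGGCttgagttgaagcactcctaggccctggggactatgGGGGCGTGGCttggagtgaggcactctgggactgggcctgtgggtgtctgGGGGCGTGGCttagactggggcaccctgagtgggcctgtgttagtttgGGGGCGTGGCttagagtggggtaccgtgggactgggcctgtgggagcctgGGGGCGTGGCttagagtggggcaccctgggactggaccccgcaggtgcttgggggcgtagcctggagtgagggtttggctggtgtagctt
There were 5 copies, against 0 at the outer start, and 4 of 34961 windows over all genes held as many (1.52% held any, on either strand). These letters were chosen after the sequence was seen. The window held only 9 CpG, fewer than the median of all windows.

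GNAS (chromosome 20, 58839748 to 58911192) gives several products from separate starts with different imprinting, among them the stimulatory G protein alpha subunit. At the outermost start, which is active on the maternal copy, it had 5.11-fold (4.66 to 5.59). At the pair of starts 13.0 and 13.2 kb inside, active on the paternal copy, it had 22.01-fold (21.1 to 22.97). The starts 48.7 and 49.4 kb inside lay in a 70.3-fold peak (68.6 to 72.0) of 4973 bp (58888265 to 58893237). The antisense RNA GNAS-AS1, paternally expressed, had 41.5-fold (40.2 to 42.9) with the summit 1 bp from its start. On the same chromosome NNAT (37521250 to 37523690), a paternally expressed gene of membrane proteolipids, lies inside BLCAP. Its start had no summit but was reached by a 10.5-fold peak centred 1.48 kb before it, and its far end had 2.21-fold. BLCAP, whose imprinting varies between transcripts, had 110.4-fold (108 to 113) at its outer starts and 1.62-fold at its inner start.

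**Figure D3:**
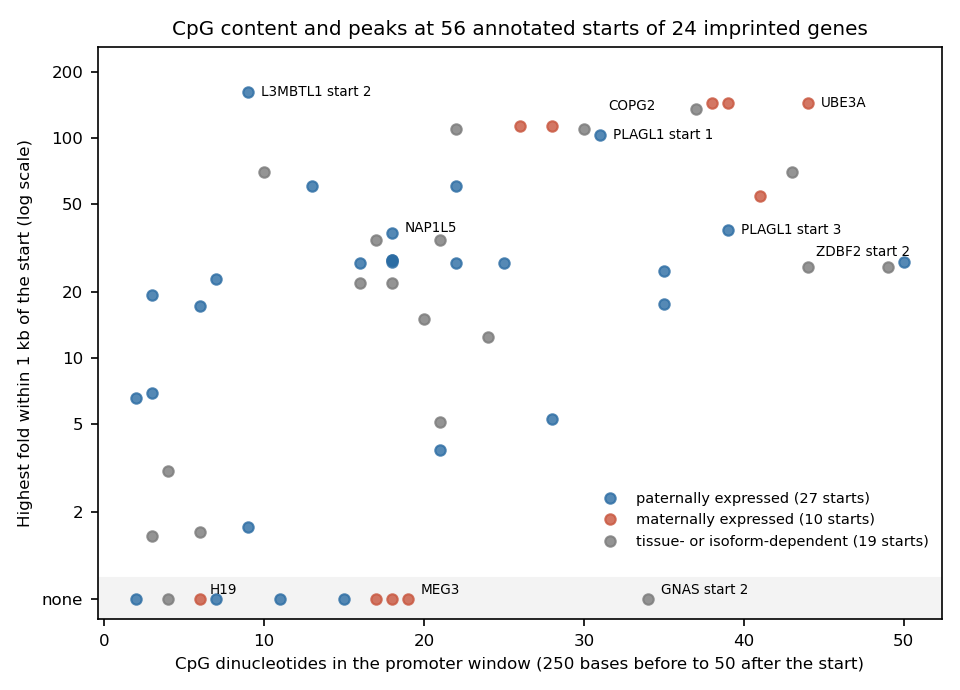
Highest fold within 1 kb of each of 56 annotated starts of 24 imprinted genes (log axis, starts without a summit in the shaded strip) against the number of CpG dinucleotides in the 300 bases around it. L3MBTL1 start 2 has 162-fold with 9 CpG, whereas GNAS start 2 has 34 CpG and no summit.

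A summit lay within 1 kb of 46 of the 56 starts (82.1%), against 67.6% of all 34961 starts and 77.8% of the starts of coding genes, to which 22 of the 24 genes belong. The median was 25.4-fold, against 11.7-fold over all starts and 39.0-fold over the starts of coding genes. Among starts with 20 or more CpG, 26 of 27 had a summit, against 91.9% of all such starts, and the median was 34.4-fold, against 86.4-fold. The 1 exception was the GNAS start 1.87 kb inside. The 10 starts without a summit belonged to 8 genes, and their median was 13.0 CpG, against 21.0 for the 46 starts with one.

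Of the remaining single-gene loci, ZDBF2, a zinc finger gene on chromosome 2 (206274663 to 206314427), had 27.5-fold (26.4 to 28.6) at its start. NAP1L5, a retrogene inside HERC3 on chromosome 4 (88695913 to 88697829), had 37.1-fold (35.9 to 38.4), with the summit 12 bp from its start. DIRAS3, a RAS-like growth suppressor on chromosome 1 (68045962 to 68050627), had 3.82-fold at its start and 4.39-fold at its far end, and a 9.62-fold peak centred 1.08 kb before its start. These 3 genes are paternally expressed. IGF2R (chromosome 6, 159969082 to 160111504), a receptor that removes IGF2, is maternally expressed in mice and variably so in people. It had 54.7-fold (53.2 to 56.2) at its start and 24 peaks inside, up to 43.5-fold at 12.9 kb past the start. AIRN, the antisense RNA that silences this gene in mice, had no summit at an end. WT1 (chromosome 11, 32387775 to 32435539), a zinc finger factor often altered in leukaemia, had 34.4-fold (33.3 to 35.6) at its start. A 50.8-fold peak (32420392 to 32422268) lay 14.5 kb inside WT1.

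Paternally and maternally expressed genes overlapped in every measure. A summit at an end was present in 17 of 23 paternally expressed genes (73.9%) and in 3 of 7 maternally expressed genes (42.9%). Medians were 17.2-fold over the paternally expressed genes and 0 over the maternally expressed ones, with ranges of 0 to 104-fold and 0 to 144-fold. These values are not limited to imprinted starts. PLAGL1 (104-fold) and MEST (60.7) entered with their outer starts, whereas their imprinted starts had 38.2-fold and 26.9-fold. In other genes starts farther inside were higher. L3MBTL1, paternally expressed, entered with 24.9-fold, whereas its inner start had 162-fold. SLC22A18, maternally expressed, entered with 39.4-fold, whereas its starts farther inside had 114-fold. UBE3A, imprinted in neurons, and IGF2R, variably imprinted in people, were counted as maternally expressed. The 4 maternally expressed genes without a summit were H19, MEG3, MEG8 and PHLDA2, of which the first 3 are non-coding RNAs. Only 2 of the 23 paternally expressed genes, KCNQ1OT1 and GNAS-AS1, are non-coding, so expressed copy and gene type cannot be told apart. The other 5 genes, GRB10, COPG2, GNAS, BLCAP and WT1, whose imprinting depends on tissue or transcript, all had a summit, with a median of 34.4-fold. Between paternally and maternally expressed genes the direction depended on the rule. Where any peak reaching within 1 kb of an end counted, the medians were 19.5-fold and 16.99-fold. With the highest gene of each cluster and class as 1 value, the paternal median (14 clusters) was lower than the maternal median (5 clusters) by 13.2-fold units. With GRB10, COPG2, GNAS and BLCAP counted as maternal, the paternal median was lower by 8.74.

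**Figure D4:**
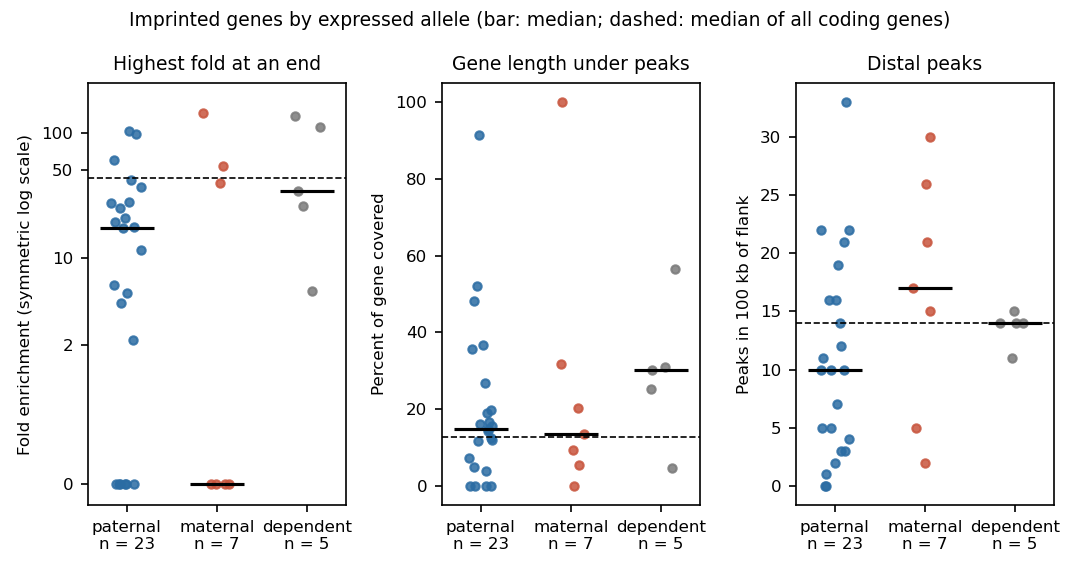
Highest fold at an end (symmetric log axis), percent of gene length under peaks and number of distal peaks for each of the 35 imprinted genes by expressed copy, with bars at class medians and dashed lines at the median of all coding genes. The classes overlap in all 3 panels, and 4 of 7 maternally expressed genes sit at 0 in the left panel.

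Inside the genes, 297 different peaks lay over or within 1 kb of the 35 genes, with a median of 4.15-fold. Peaks covered a median of 15.5% of gene length, against 12.6% for all coding genes. A summit more than 1 kb from both ends was present in 21 of the 30 coding genes (25 of all 35), against 76.5% of all coding genes. Coverage was 14.7% over paternally expressed and 13.6% over maternally expressed genes. The median number of distal peaks in the 100 kb of flank was 12, against 14 for all coding genes. It was 10 over paternally expressed and 17 over maternally expressed genes, and members of a cluster share these peaks. Above 20 distal peaks, the upper quartile of all coding genes, stood 7 of 35 genes, against 22.7% of all coding genes. They were DLK1 (33), PHLDA2 (30), SLC22A18 (26), INS (22), MEST (22), KCNQ1OT1 (21) and MEG3 (21). PEG3 and ZIM2 had none, MKRN3 had 1, and SNRPN and UBE3A had 2 each.

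**Figure D5:**
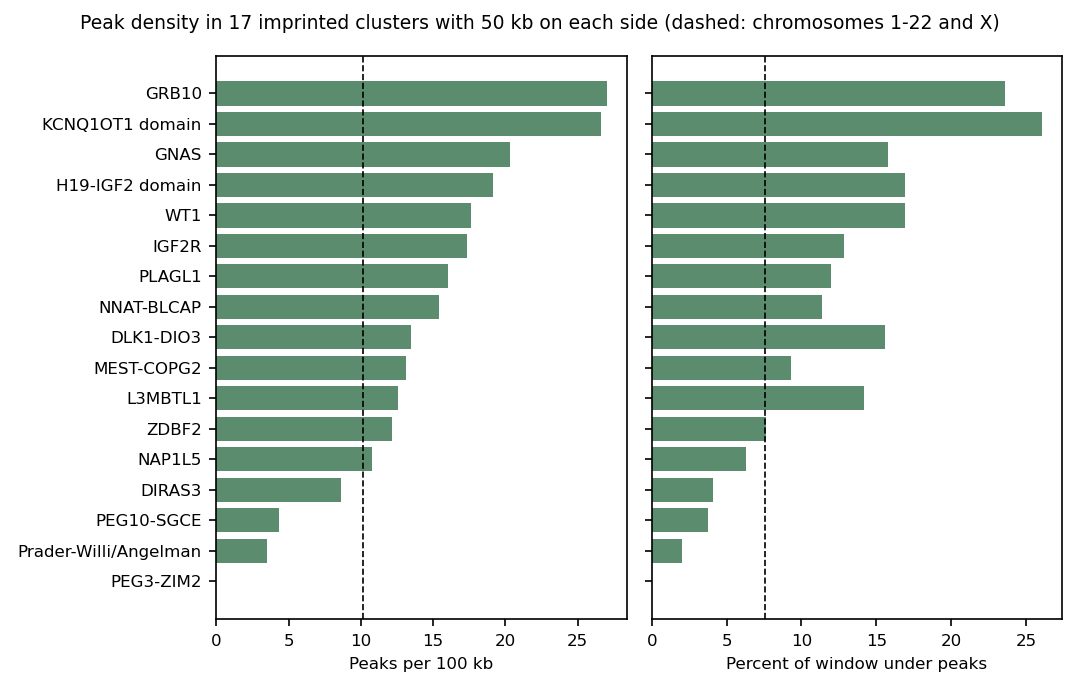
Peaks per 100 kb (left) and percent of length under peaks (right) in the 17 imprinted clusters, each from 50 kb before its outermost gene to 50 kb after it, with dashed lines at the value for chromosomes 1 to 22 and X. The GRB10 and KCNQ1OT1 windows are the densest and the PEG3 window is empty.

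By cluster, 13 of 17 windows were denser in peaks than the genome (10.2 per 100 kb), with a median of 13.5. These windows are placed on genes, whereas the genome value includes stretches without genes. Windows around all coding genes were not counted, so the share of those above the genome value is not known. Distal peaks, counted alike for both, had a median of 12 over the 35 genes and 14 over all coding genes. GRB10 (27.0) and KCNQ1OT1 (26.6) were the densest, followed by GNAS (20.3) and H19 to IGF2 (19.2). Below the genome stood DIRAS3 (8.60), PEG10 to SGCE (4.33), the Prader-Willi and Angelman region (3.50) and PEG3 to ZIM2 (0). The share of length under peaks was highest at KCNQ1OT1 (26.1%), against 7.55% over the genome. In 10 of the 17 windows the highest peak lay in or within 1 kb of a listed imprinted gene. The exceptions include PLAGL1, where SF3B5 (192-fold) led, MEST, where CEP41 (158-fold) led, and DLK1 to DIO3. Lengths run to the last peak of each chromosome, unassembled sequence included, in the genome value.

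Of 40 further imprinted genes or their neighbours, coding and non-coding, 28 had a summit at an end (70.0%), against 83.0% of all coding genes and 54.9% of all lncRNA and antisense genes. Their median was 10.1-fold, against 43.5-fold over coding and 2.06-fold over lncRNA and antisense genes. TSSC4 (298-fold), INPP5F (217) and NAP1L4 (167), coding genes in or near imprinted domains, led, while DDC, next to GRB10, and PEG3-AS1 and MIMT1, of the PEG3 domain, had none. Of 15 genes that set or keep imprints, 12 had a summit (80%), against 83.0% of all coding genes, with a median of 86.0-fold, against 43.5-fold. ARID4A (271-fold), a chromatin factor, CTCF (268) and TRIM28 (237), the corepressor that ZFP57 recruits, led. DNMT1, which copies methylation to new DNA, had 131-fold and ZFP57 itself 2.51-fold (at an end). UHRF1, which guides DNMT1, and the oocyte genes NLRP2 and NLRP7 had no summit at an end.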

How the data were processed

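Nuclei (50000 per library) of H1-derived blood progenitors were transposed for 45 minutes and read as 75-nucleotide pairs, per the labels' protocols. Per the submitters' processing notes, Picard 2.2.4, Bowtie2 2.2.8 and Trim Galore 0.6.5 were used, and the peak names in the deposited file name MACS 2.1.0 and GENCODE 36. Shifts for the transposase, filters and the libraries pooled are not given in the sources used here. The deposited list gives, per peak, a fold enrichment (a linear ratio), a −log10 p-value, by which the more significant peaks were chosen, and a score, on which no result rests. Depth per library is unknown. Under 1 background of 93.5 for the genome, every pileup below 1000 (243638 of them) was within 0.1 of a whole number, and 95% intervals rest on these, so they cover counting error only. A background that does not vary along the genome does not correct for copy number or mappability, and a pooled list can hold peaks of a part of the libraries.

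Genes and promoter windows came from RefSeq (GRCh38.p14), which has the same chromosome coordinates. A gene's start was its outer end on the strand of the promoter table for 24 genes and on the strand known from general knowledge for 11. Alternative windows, distances, peak sets and classes were tried. The members and lists were chosen with earlier results of these data known. The expressed copy was assigned from general knowledge: 23 paternal, 7 maternal, and 5 in neither class (GRB10, COPG2, GNAS, BLCAP and WT1). Named genes are all 35 members, and of the other lists the 3 highest and up to 3 without a summit. The gene nearest to the highest peak of a cluster is named too. CDKN1C, HYMAI, DNMT1, ZFP57, AIRN, DCN and CDH5 were named beyond this rule after their values were seen. No test was run. Code was tested on simulated data. The tools were matplotlib 3.10.9, scipy 1.17.1, pandas 2.3.3 and numpy 2.4.6 under Python 3.11.15.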

Additional observations from a re-analysis of the deposited data

How the results depend on the processing

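Of 57 values recomputed under an alternative, 51 stayed in range, 4 moved and 2 reversed. In range meant within 1.5 times the reported count or within the 95% order-statistic interval of the median over genes. That interval is wide and treats genes as independent. Over the 7 maternally expressed genes it spanned all their values, 0 to 144-fold, so it could hardly show a move. The paternal minus maternal difference, 17.2 as reported, counted as in range at 2.88 (windows of 2.5 kb) and 2.51 (any peak reaching within 1 kb of an end). The 2 that reversed were the difference of paternal minus maternal medians at gene ends, which was -8.74 with GRB10, COPG2, GNAS and BLCAP counted as maternal and -13.2 with 1 value per cluster and class, against 17.2 as reported. The number of maternally expressed genes with a summit, 3 of 7, was 5 with windows of 2.5 kb and 7 of 11 with those 4 genes. Keeping the more significant 50% of the peak list, the median number of distal peaks fell to 6, against 7 for all coding genes, and the median cluster density to 8.15 per 100 kb, against 5.09 for the genome. The lower median at the ends of imprinted genes, against all coding genes, kept its direction under all 5 alternatives for gene ends. Its size did not. Where only summits nearest to the gene itself counted, the medians were 17.2-fold and 24.8-fold, against 17.6-fold and 43.5-fold as reported. Distal peaks counted within 20 kb had the same median per 100 kb, 12.5, over the 35 genes and over all coding genes. With windows of 0.5 kb, the median fell to 5.11-fold over the 35 genes and 27.9-fold over all coding genes, IGF2, RTL1 and WT1 had no summit at an end, and PLAGL1 had 19-fold and SLC22A18 1.51-fold. COPG2 had none when only summits nearest to the gene itself counted. No paired analysis was possible because the peak list gives no value for any library, and for the same reason no library could be left out.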
